A study of Mus musculus with 9 samples.

Results

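The genes described here are 10 genes of the spiral ganglion neuron and its axon. They are the neurofilament subunits Nefl, Nefm and Nefh, the related intermediate filament Prph, the neuronal tubulin Tubb3, the growth-associated genes Stmn2 and Gap43, the vesicular glutamate transporter Slc17a7, the granule protein Chgb and the ubiquitin hydrolase Uchl1. They were chosen by symbol. Of the 25579 symbols in the table of treated and untreated homozygous libraries, 10 of 10 were present, and all 10 passed the filter on low values. Of the 1410 symbols in the table of homozygous and WT libraries, 5 of the 10 were present (Nefl, Nefh, Stmn2, Slc17a7 and Chgb), and all 5 passed the filter.

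RNA came from the cochlear membranous labyrinth of mice at postnatal day 28. This is the soft tissue that lies within the bone of the cochlea. The treated hMPZL2Q74X/Q74X group (3 libraries) carried the humanized MPZL2 gene with the Q74X nonsense variant on both alleles and had received AAV-ie-ABE8eWQ-SpRY:sgRNA3, an adeno-associated virus vector for an adenine base editor with its guide, by the round window route on postnatal day 2. The hMPZL2Q74X/Q74X group (3 libraries, called untreated homozygous here) had the same genotype without the vector, and the WT group (3 libraries) was wild type for Mpzl2. The labels call the libraries biological replicates, name no injected control, and do not give the promoter of the vector, the sex or the number of animals in a library. The study set out to find pathways behind the cochlear pathology of the variant.

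Neurofilaments are polymers of a light, a medium and a heavy subunit that fill large axons and set their calibre. Type I spiral ganglion neurons, which carry sound information from the inner hair cells to the brainstem, are large and myelinated and are rich in all 3 subunits, whereas peripherin is known as a marker of the unmyelinated type II neurons that contact outer hair cells. The ganglion cells and their peripheral axons are wrapped by Schwann cells, and the central part of the auditory nerve is wrapped by oligodendrocytes. None of the 10 genes is restricted to the ear: neurons of the brain and of other ganglia express them too.

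The libraries were not alike within the treated group. Treated libraries 1 and 2 differed by a median of 0.0702 on the log2 scale over genes at 20 TPM or more, against 0.434 and 0.437 between each of them and library 3 and 0.187 to 0.271 between untreated homozygous libraries. They were counted as 1 sample through their mean, so the treated group had n = 2. Libraries 1 and 2 also had high levels of forebrain neuron markers: Camk2a, a kinase of forebrain excitatory neurons, was at 745 and 722 TPM there, at 8.13 TPM in treated library 3 and at 0.471, 0.503 and 0.554 TPM in the untreated homozygous libraries. Mitochondrially encoded genes made up 2.17%, 2.22% and 6.16% of the TPM of the treated libraries and 13.6%, 10.7% and 13.4% of the untreated homozygous libraries. Untreated homozygous library 2 was the lowest of its group for 10 of the 10 genes. Values are therefore given for every library, and results of the treated group are also given for library 3 alone. Mpzl2 itself was at 5.64, 5.62 and 16.3 TPM in the treated libraries and 17.4, 24.0 and 13.1 TPM in the untreated homozygous libraries, which overlapped. In the other table it was at 16.7, 23.2 and 12.5 TPM in homozygous libraries and 33.6, 43.9 and 49.0 TPM in WT libraries, with a log2 fold change of -1.25 (standard error 0.24, limma adjusted p = 0.0139).

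The sequences just upstream of the start were available for 5 of the 10 genes (Prph, Tubb3, Slc17a7, Chgb and Uchl1). Printed here are those of Chgb, the member with the largest decrease, of Slc17a7 and Tubb3, which treated libraries 1 and 2 and library 3 placed differently, and of Prph, which was low in every library. They are the 150 bases before the annotated start on the plus strand, from RefSeq, build GRCm38.p6, at chr2:132781492-132781641 for Chgb, chr7:45163771-45163920 for Slc17a7, chr8:123411403-123411552 for Tubb3 and chr15:99055024-99055173 for Prph. Capitals mark matches, on either strand, to the cyclic AMP response element TGACGTCA, the TATA box TATAAA, the GC box GGGCGG and the CCAAT box CCAAT.
Chgb: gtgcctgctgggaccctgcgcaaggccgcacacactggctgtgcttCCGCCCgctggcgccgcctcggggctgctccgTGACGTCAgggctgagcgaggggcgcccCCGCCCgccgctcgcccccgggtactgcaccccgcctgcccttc
Slc17a7: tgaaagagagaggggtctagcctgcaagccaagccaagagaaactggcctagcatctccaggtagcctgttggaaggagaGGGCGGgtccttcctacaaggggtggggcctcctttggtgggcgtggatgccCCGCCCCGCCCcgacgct
Tubb3: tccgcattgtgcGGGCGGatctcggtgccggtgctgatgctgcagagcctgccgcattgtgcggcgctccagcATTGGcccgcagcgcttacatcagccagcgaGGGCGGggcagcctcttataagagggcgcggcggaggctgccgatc
Prph: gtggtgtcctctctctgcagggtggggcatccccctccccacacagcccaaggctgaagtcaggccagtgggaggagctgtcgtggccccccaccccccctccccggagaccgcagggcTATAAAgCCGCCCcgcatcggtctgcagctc
The Chgb stretch holds 1 cyclic AMP response element that begins 72 bases before the start, a motif found in 1.36% of the windows of this length in 32851 promoters of the table, and 2 GC boxes. Slc17a7 holds 3 GC boxes, of which 2 overlap by a base, and none of the other motifs. Tubb3 holds 2 GC boxes and 1 CCAAT box, and Prph holds a TATA box that begins 31 bases before the start and 1 GC box. All promoters of the table hold a TATA box in 7.57%, a GC box in 28.6% and a CCAAT box in 24.5% of these windows. The Uchl1 window, at chr5:66675971-66676120, held none of the 4 motifs.

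In untreated homozygous cochlea the 3 neurofilament subunits were the most abundant of the 10 genes. TPM is scaled by transcript length, so levels can be set side by side between genes: the lowest and highest library had 376 and 654 TPM of Nefl, 344 and 700 TPM of Nefm, and 345 and 598 TPM of Nefh, and these ranges overlapped one another. Each subunit's mean exceeded that of at least 99.1% of the genes with a mean of 1 TPM or more. Tubb3, Uchl1, Slc17a7, Chgb and Stmn2 followed in that order of the mean, between 68.9 and 327 TPM in single libraries, with neighbours in the order overlapping. Gap43 (0.714 to 4.43 TPM) and Prph (1.54 to 2.81 TPM) stood apart at the low end. In the treated libraries the order differed. Slc17a7 had the highest mean, which rests on libraries 1 and 2: in library 3 it was at 157 TPM, below Nefm (242 TPM), Nefl (187 TPM), Uchl1 (182 TPM) and Nefh (172 TPM). Chgb, at 26.5 to 38.9 TPM, lay below Stmn2, at 40.5 to 84.0 TPM, with no overlap.

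**Figure D1:**
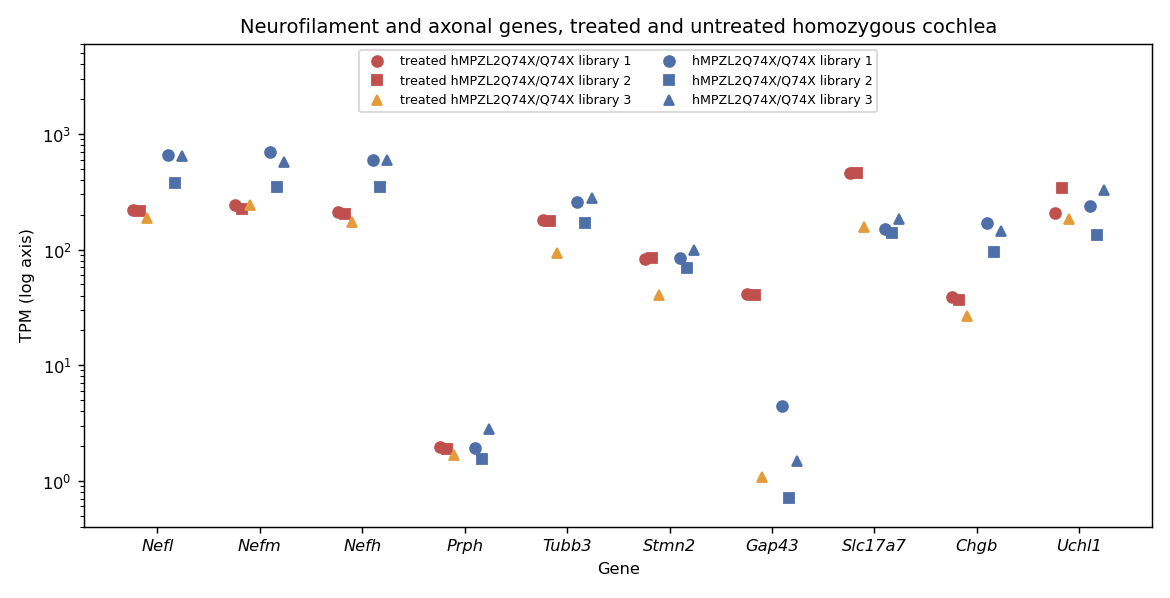
TPM (log axis) of the 10 genes in each treated (red, and orange for library 3) and untreated homozygous (blue) library, with circles, squares and triangles for libraries 1, 2 and 3. All 3 treated libraries lie below all 3 untreated ones for Nefl, Nefm, Nefh and Chgb, and treated libraries 1 and 2 stand apart from library 3 for Gap43 (41.3 and 40.6 against 1.08 TPM) and Slc17a7 (459 and 461 against 157 TPM).

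The first comparison asked how the treated cochlea differed from the untreated homozygous cochlea. Nefl, Nefh and Chgb were lower in treated cochlea, at 0.364, 0.370 and 0.236 times the untreated mean, while the other 7 genes did not pass the test. Of the 10 genes, 3 fell (Nefl, Nefh and Chgb) and 0 rose by limma on log2(TPM + 1) with a Benjamini-Hochberg adjusted p under 0.05, against 0.965% of all 17102 tested genes called lower and 3.44% called higher. At an unadjusted p under 0.05, 5 of the 10 stood out. The treated and untreated libraries did not overlap for 4 of the 10 genes, all lower, where 14.8% of all tested genes were lower without overlap and 28% were higher without overlap. The median log2 fold change of the 10 genes was -0.67, against 0.20 over all tested genes. In bulk tissue, fewer neurons in the dissected sample and less RNA per neuron cannot be told apart.

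Nefl, the light subunit on which the filament is built, had 221, 217 and 187 TPM in treated libraries, against 654, 376 and 640 TPM in untreated homozygous libraries. Every treated library lay below every untreated one, untreated library 2 included. The means were 203 ± 22.7 TPM (SD, n = 2) in treated and 557 ± 157 TPM (SD, n = 3) in untreated homozygous cochlea. On the log2 scale the difference was -1.41 (standard error 0.28), with a 95% interval of -2.09 to -0.735 (limma adjusted p = 0.0464).

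Nefh, the heavy subunit whose long side arms are phosphorylated in axons, followed it closely. It had 211, 202 and 172 TPM in treated libraries, against 598, 345 and 592 TPM in untreated homozygous libraries, with no overlap. Its means were 189 ± 24.6 TPM (SD, n = 2) and 512 ± 144 TPM (SD, n = 3), and its log2 fold change was -1.39 (standard error 0.28, limma adjusted p = 0.0490).

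Nefm, the medium subunit, had 243, 226 and 242 TPM in treated libraries, against 700, 344 and 568 TPM in untreated homozygous libraries. The groups did not overlap, and the treated libraries were closely grouped. Its log2 fold change of -1.11 (standard error 0.31) did not pass (limma adjusted p = 0.0853). With the 3 treated libraries taken as separate samples it did (limma adjusted p = 0.0281). That fit counts the near-identical libraries 1 and 2 as 2 samples, so its p-values are too small. It called 2554 genes higher and 1009 lower, against 589 and 165 in the main fit.

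The calls of Nefl and Nefh lay close to the threshold. Without treated library 3 the log2 fold changes were -1.30 for Nefl and -1.26 for Nefh, and neither passed (limma adjusted p = 0.0671 and 0.0715). Leaving out untreated library 1 gave -1.27 and -1.26, and leaving out untreated library 3 gave -1.29 and -1.26, and again neither passed. Nefh also missed without treated library 2 (-1.38, limma adjusted p = 0.0513). With treated library 3 as the only treated sample, the log2 fold changes were -1.53 for Nefl, -1.09 for Nefm and -1.52 for Nefh, and none passed (limma adjusted p = 0.0933, 0.167 and 0.0933). The direction was the same in each of these fits, and the lone treated sample was assumed to vary like the untreated group.

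Nefh kept nearly the same proportion to Nefl in every library, and Nefm did so less closely. The ratio of Nefh to Nefl was 0.956, 0.933 and 0.920 in treated libraries and 0.914, 0.918 and 0.924 in untreated homozygous libraries. The ratio of Nefm to Nefl was 1.10, 1.04 and 1.29 in treated libraries and 1.07, 0.916 and 0.888 in untreated homozygous libraries. The ranges overlapped for the medium subunit, and for the heavy subunit all 6 ratios lay between 0.914 and 0.956.

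Prph, peripherin, was low in every library. It was at 1.94, 1.89 and 1.67 TPM in treated libraries, against 1.93, 1.54 and 2.81 TPM in untreated homozygous libraries. The groups overlapped, and the log2 fold change was -0.13 with a 95% interval of -1.08 to 0.818 (limma adjusted p = 0.859). The other type II neuron markers Th, Calca, Ngfr, Etv4 and Drd2 summed to 33.2, 30.3 and 46.8 TPM in treated libraries and 37.9, 40.4 and 49.3 TPM in untreated homozygous libraries, with 0 of 4 tested genes called. Most of that sum was Ngfr, a neurotrophin receptor also made by Schwann cells, at 28.1, 25.7 and 24.1 TPM in treated libraries and 31.0, 26.5 and 37.1 TPM in untreated homozygous libraries.

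Tubb3, the beta-tubulin of neurons, had 179, 176 and 93.8 TPM in treated libraries, against 257, 168 and 278 TPM in untreated homozygous libraries. Treated libraries 1 and 2 lay within the untreated range and library 3 lay below it. Its log2 fold change of -0.82 (standard error 0.34) did not pass (limma adjusted p = 0.181), and it was -1.28 with library 3 alone (limma adjusted p = 0.0983). Beta-tubulin genes are close in sequence, so reads could be shared among them. The ratio of Nefl to Tubb3 was 1.23, 1.23 and 1.99 in treated libraries and 2.54, 2.23 and 2.30 in untreated homozygous libraries, lower in all 3 treated libraries.

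Stmn2, a stathmin that regulates microtubules in growing and mature axons, had 83.5, 84.0 and 40.5 TPM in treated libraries, against 84.4, 68.9 and 99.5 TPM in untreated homozygous libraries. Here too only library 3 was below the untreated range. Its log2 fold change was -0.51 with a 95% interval of -1.31 to 0.290 (limma adjusted p = 0.373). It was -1.02 with library 3 alone (limma adjusted p = 0.0970) and 0.01 without library 3 (limma adjusted p = 0.985).

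Gap43, a growth cone protein that many forebrain neurons keep into adulthood, was the most divided member. It had 41.3 and 40.6 TPM in treated libraries 1 and 2 and 1.08 TPM in treated library 3, against 4.43, 0.714 and 1.49 TPM in untreated homozygous libraries. Libraries 1 and 2 averaged 38.0 times the level of library 3, which itself lay inside the untreated range. Over the group the log2 fold change was 1.71 with a 95% interval of -1.21 to 4.64 (limma adjusted p = 0.412). Without library 3 it was 3.88 (limma adjusted p = 0.0289), and with library 3 alone it was -0.46 (limma adjusted p = 0.691).

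Slc17a7 loads glutamate into synaptic vesicles and is used by spiral ganglion neurons and by cortical excitatory neurons alike. It had 459, 461 and 157 TPM in treated libraries, against 149, 140 and 183 TPM in untreated homozygous libraries. Libraries 1 and 2 were above every untreated library, at 2.92 times the untreated mean, and library 3 was within the untreated range, at 0.999 times the untreated mean. Over the group the log2 fold change was 0.78 with a 95% interval of -0.247 to 1.80 (limma adjusted p = 0.293). Without library 3 it was 1.55 (limma adjusted p = 0.0196), and with library 3 alone it was 0.01 (limma adjusted p = 0.986). The ratio of Slc17a7 to Nefl was 2.08, 2.13 and 0.842 in treated libraries and 0.228, 0.373 and 0.286 in untreated homozygous libraries, higher in all 3 treated libraries.

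Chgb, chromogranin B, an acidic protein of dense-core granules, showed the largest decrease of the 10 genes. It had 38.9, 36.5 and 26.5 TPM in treated libraries, against 170, 94.9 and 144 TPM in untreated homozygous libraries. The highest treated library was below the lowest untreated library. The means were 32.1 ± 7.90 TPM (SD, n = 2) in treated and 136 ± 38.2 TPM (SD, n = 3) in untreated homozygous cochlea. Its log2 fold change was -2.03 (standard error 0.30, limma adjusted p = 0.0229), which ranked 117 of the 17102 tested genes counted from the lowest. It was -2.28 with treated library 3 alone (limma adjusted p = 0.06), -1.85 without untreated library 1 (limma adjusted p = 0.127) and -1.97 without untreated library 3 (limma adjusted p = 0.123). The ratio of Chgb to Nefl was 0.176, 0.168 and 0.142 in treated libraries and 0.260, 0.253 and 0.224 in untreated homozygous libraries, so Chgb was lower relative to Nefl in all 3 treated libraries.

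Uchl1, an abundant neuronal deubiquitinating enzyme, had 208, 343 and 182 TPM in treated libraries, against 239, 135 and 327 TPM in untreated homozygous libraries. The groups overlapped. Its log2 fold change was 0.03 with a 95% interval of -0.899 to 0.964 (limma adjusted p = 0.965), and its sign turned under median-of-ratios scaling (-0.16) and with library 3 alone (-0.26). An antisense gene overlaps Uchl1, and the sources used here do not say whether the counting used strand.

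**Figure D2:**
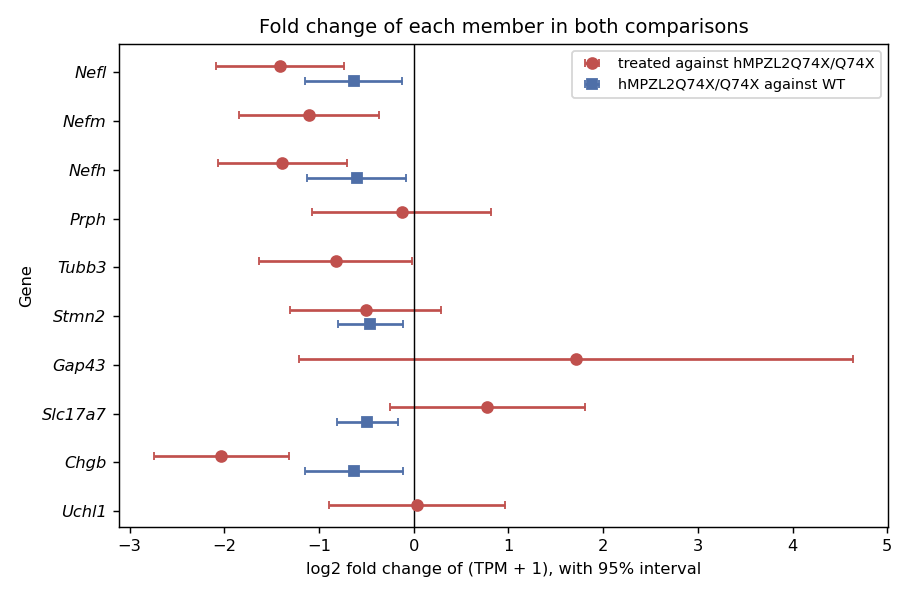
Log2 fold change of (TPM + 1) with its 95% interval for each gene, treated against untreated homozygous (red circles) and homozygous against WT (blue squares, for the 5 genes in that table). The red intervals of Nefl, Nefm, Nefh, Tubb3 and Chgb lie below 0, that of Gap43 spans -1.21 to 4.64, and the 5 blue intervals lie below 0.

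Counted library by library, treated library 3 was below all 3 untreated homozygous libraries for 6 of the 10 genes (the 3 neurofilament genes, Tubb3, Stmn2 and Chgb), and above them for 0 of the 10, against 32.8% of all tested genes below and 41.4% above. Treated libraries 1 and 2 were both below all 3 for 4 of the 10 (the 3 neurofilament genes and Chgb) and both above for 2 of the 10 (Gap43 and Slc17a7), against 25.2% of all tested genes below and 48.1% above. Relative to the untreated mean, libraries 1 and 2 and library 3 gave 0.393 and 0.336 for Nefl, 0.437 and 0.450 for Nefm, and 0.404 and 0.336 for Nefh. For Chgb they gave 0.277 and 0.195. These 4 genes were below the untreated mean to a like degree in both treated samples. For Tubb3 the values were 0.757 and 0.4, and for Stmn2 they were 0.994 and 0.481, so library 3 was lower than libraries 1 and 2 in both genes.

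**Figure D3:**
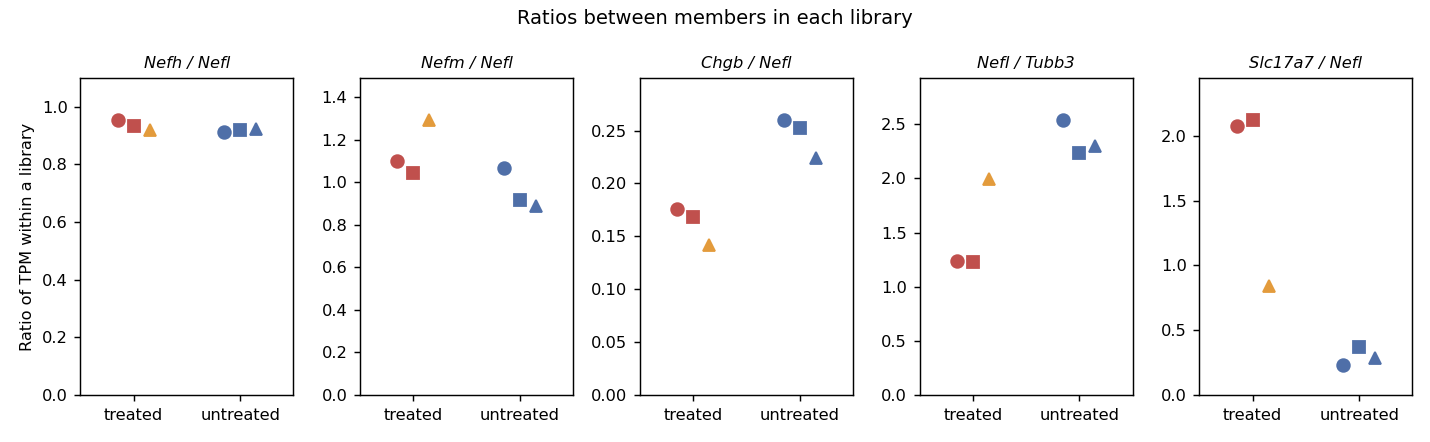
Ratio of the TPM of pairs of genes within each treated (red, and orange for library 3) and untreated homozygous (blue) library, with circles, squares and triangles for libraries 1, 2 and 3. Nefh over Nefl lies between 0.914 and 0.956 in all 6 libraries, whereas Chgb over Nefl and Nefl over Tubb3 are lower, and Slc17a7 over Nefl is higher, in every treated library.

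Markers of the ganglion's own cells and of other cells moved beside these genes. For this list and those that follow, 0.965% of all tested genes were called lower and 3.44% higher. Of 13 type I spiral ganglion neuron markers, all were tested, 1 fell and 0 rose, and their summed level was 1579, 1543 and 1272 TPM in treated libraries and 2754, 1801 and 3285 TPM in untreated homozygous libraries. Esrrg, a nuclear receptor that marks these neurons, fell: it had 31.4, 29.7 and 40.9 TPM in treated libraries, against 136, 99.9 and 130 TPM in untreated homozygous libraries, with a log2 fold change of -1.75 (standard error 0.23, limma adjusted p = 0.0186). The largest part of the sum was Calb2, calretinin, at 565, 564 and 592 TPM in treated libraries and 1707, 1022 and 2077 TPM in untreated homozygous libraries, which did not pass (-1.41, limma adjusted p = 0.0604). Calb2 was chosen after its values were seen. Gata3, a transcription factor of the ear that hair cells and supporting cells also make, overlapped between the groups, at 95.9, 82.2 and 124 TPM in treated libraries and 76.8, 92.0 and 119 TPM in untreated homozygous libraries.

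Schwann cell markers were also lower by sum, and none passed. Their 8 genes summed to 3627, 3544 and 3064 TPM in treated libraries and 6152, 3767 and 7230 TPM in untreated homozygous libraries, with 0 of 8 called. Pmp22, a protein of peripheral myelin, stood at -0.50 on the log2 scale (limma adjusted p = 0.417). Oligodendrocyte markers, 8 genes of which 7 were tested, summed to 1961, 1881 and 1799 TPM in treated libraries and 4706, 2164 and 5635 TPM in untreated homozygous libraries, and 1 fell. It was Mog, a protein of central myelin, at 3.29, 3.25 and 0 TPM in treated libraries and 34.0, 14.7 and 34.0 TPM in untreated homozygous libraries (log2 fold change -3.70, standard error 0.70, limma adjusted p = 0.0415). Their part in the neurofilament result was not tested.

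Forebrain markers moved the other way in 2 of the 3 treated libraries. The 10 forebrain excitatory neuron markers summed to 964, 938 and 42.1 TPM in treated libraries and 27.5, 42.9 and 31.3 TPM in untreated homozygous libraries. Neurod6 was at 6.25, 6.0 and 0 TPM in treated libraries and at 0 in all 3 untreated homozygous libraries, and Tbr1, a cortical transcription factor, was at 27.3, 26.4 and 0 TPM in treated libraries and 0, 0 and 0.362 TPM in untreated homozygous libraries. Slc30a3, a vesicular zinc transporter, was the 1 of 5 tested genes that rose, at 14.4, 14.1 and 4.84 TPM in treated libraries and at 0 in all 3 untreated homozygous libraries (limma adjusted p = 0.0273). It passed the filter on low values only through the treated libraries, so its call partly follows from the filter. Neurod6, Tbr1, Neurod2 and Emx1 reached 1 TPM only in treated libraries 1 and 2 and were not tested. Gap43 and Slc17a7 were high in the same 2 libraries, and in library 3, where Neurod6 and Tbr1 were at 0, both lay within the untreated range. Forebrain markers were not all absent from library 3, where Camk2a was at 8.13 TPM and Slc30a3 at 4.84 TPM, against at most 0.554 TPM of Camk2a and 0 TPM of Slc30a3 in untreated homozygous libraries. In that library Nefl, Nefm and Nefh were at 187, 242 and 172 TPM, below every untreated homozygous library.

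Markers of other neurons were low, were not called or did not pass the filter, and some inhibitory markers were high in treated libraries 1 and 2. Of the 14 inhibitory and striatal neuron markers, 7 were tested and 0 called, with sums of 1294, 1282 and 2464 TPM in treated libraries and 1327, 2191 and 832 TPM in untreated homozygous libraries. Most of each sum was Ppp1r1b, at 1100, 1093 and 2338 TPM in treated libraries and 1078, 2043 and 598 TPM in untreated homozygous libraries. Sst and Slc32a1 were at 0 in treated library 3 and in the untreated homozygous libraries and reached 16.5 and 5.30 TPM in treated libraries 1 and 2. Gad1 was at 31.4 and 30.4 TPM in those 2 libraries, 0.563 TPM in library 3 and at most 1.04 TPM in untreated homozygous libraries. Sst and Slc32a1 were not tested, and Gad1 was tested and not called. Of the 7 tested, libraries 1 and 2 were both above the untreated range for 2 and both below it for 3, against 48.1% and 25.2% of all tested genes. Pvalb, a calcium buffer that spiral ganglion neurons also make, was at 81.9, 88.0 and 109 TPM in treated libraries and 222, 131 and 227 TPM in untreated homozygous libraries (log2 fold change -0.95, limma adjusted p = 0.101). Markers of cerebellar neurons (5 tested, 0 called) summed to 35.1 to 55.8 TPM in treated libraries and 28.3 to 43.7 TPM in untreated homozygous libraries. Those of sympathetic neurons summed to 3.64 to 5.27 TPM in treated and 5.13 to 6.31 TPM in untreated homozygous libraries, and those of somatosensory neurons to 2.36 to 3.12 TPM in treated and 1.64 to 1.92 TPM in untreated homozygous libraries. Cholinergic and glycinergic brainstem neuron markers reached at most 0.132 TPM in treated and 0.936 TPM in untreated homozygous libraries. Astrocyte markers, 8 tested and 0 called, summed to 1971, 2011 and 784 TPM in treated libraries and 1039, 1018 and 945 TPM in untreated homozygous libraries, and most of the sum in libraries 1 and 2 was the glutamate transporter Slc1a2, at 1229 and 1236 TPM there, 174 TPM in library 3 and 123, 137 and 137 TPM in untreated homozygous libraries.

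**Figure D4:**
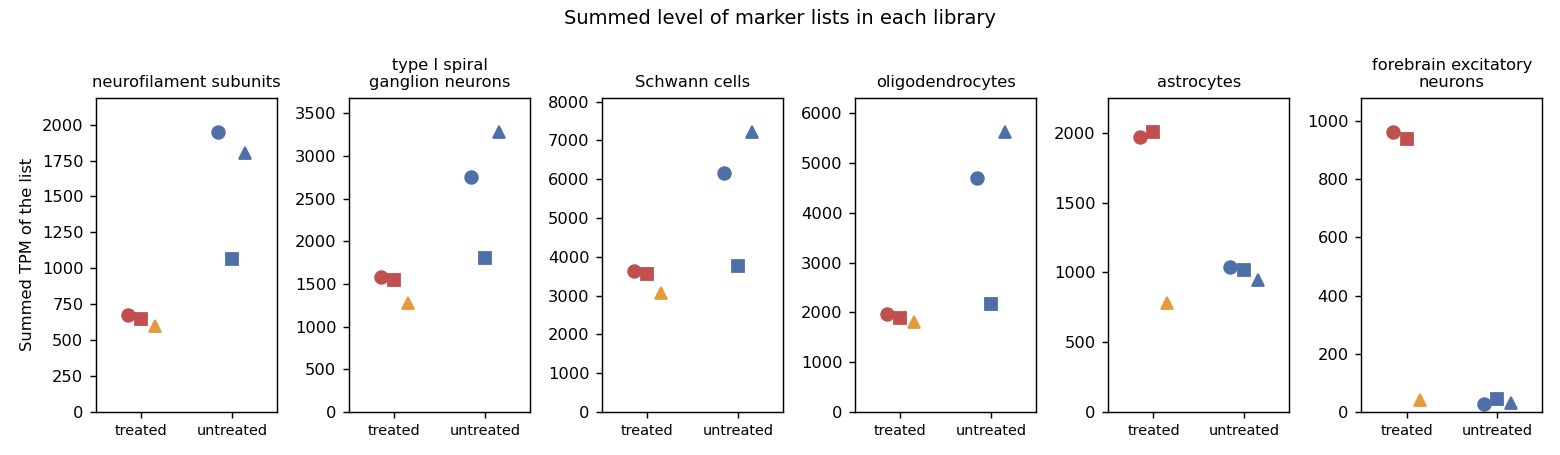
Summed TPM of the 3 neurofilament genes and of 5 marker lists in each treated (red, and orange for library 3) and untreated homozygous (blue) library, with circles, squares and triangles for libraries 1, 2 and 3. Neurofilament, type I neuron, Schwann cell and oligodendrocyte sums are lower in the treated libraries, with untreated library 2 the lowest of its group, and the forebrain sum is 964 and 938 TPM in treated libraries 1 and 2 and at most 42.9 TPM in the other 4.

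Markers of non-neuronal cells of the cochlea also moved. Over all 17102 tested genes, 3.44% were called higher and 0.965% lower. Hair cell markers (9 tested) had 1 gene higher, Ush1c (log2 fold change 1.45, limma adjusted p = 0.0331), and summed to 588, 465 and 405 TPM in treated libraries and 164, 264 and 299 TPM in untreated homozygous libraries. Macrophage markers had 5 of 8 higher, with sums of 457, 444 and 526 TPM in treated libraries and 94.4, 136 and 98.4 TPM in untreated homozygous libraries. T cell markers had 5 of 5 tested higher. None of these 5 reached 1 TPM in all 3 untreated homozygous libraries, and Gzmb was at 0 TPM there. Each therefore passed the filter on low values only with its treated libraries, so the count partly follows from the filter. The T cell markers summed to 76.7, 67.7 and 119 TPM in treated libraries and 4.64, 2.11 and 1.44 TPM in untreated homozygous libraries. Bone markers had 1 of 6 lower, Ibsp, with sums of 1763, 1754 and 4286 TPM in treated libraries and 3625, 5839 and 2982 TPM in untreated homozygous libraries. Most of each sum was Spp1, at 1668, 1661 and 4203 TPM in treated libraries and 3395, 4924 and 2740 TPM in untreated homozygous libraries. Library 3 was below all untreated homozygous libraries for 5 of the 6 bone markers and above them for 0. Libraries 1 and 2 were both below for 6 of the 6. Of all tested genes, 32.8% and 25.2% were below in this way. The part of these non-neuronal markers in the results for the 10 genes was not tested.

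Other genes of the axon were not called in the treated comparison. Of 18 other genes of the axonal cytoskeleton, 0 passed in either direction. An unadjusted p under 0.05 was found for 3 of the 18, and for at least 4432 of all 17102 tested genes. The median log2 fold change of the 18 was -0.16, against 0.20 over all tested genes. The most abundant, the spectrin Sptbn1 and the dendritic microtubule protein Map2, had log2 fold changes of 0.14 and -0.30. Treated library 3 was below all untreated homozygous libraries for 12 of the 18 and above them for 2, where 32.8% of all tested genes were below and 41.4% above. Libraries 1 and 2 were both below for 3 of the 18 and both above for 7, where 25.2% of all tested genes were below and 48.1% above. Of 13 axonal transport genes 0 passed, with a median of -0.06, and the kinesin light chain Klc1 and the kinesin Kif1b had log2 fold changes of -0.71 and -0.29. Library 3 was below the untreated range for 9 of the 13 and above it for 3, and libraries 1 and 2 were below for 2 and above for 8. Of 16 genes of the node of Ranvier and the axon initial segment 0 passed, with a median of -0.19. The anchoring protein Ank3 had a log2 fold change of 0.19. For these 16 genes library 3 was below the untreated range for 10 and above it for 1, and libraries 1 and 2 were below for 4 and above for 6.

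Synaptic and granule genes gave a similar division between the treated libraries. Of 18 synaptic vesicle genes 0 passed, with a median log2 fold change of -0.35. Cplx1, the complexin of fast synapses, had 597, 591 and 482 TPM in treated libraries, against 1495, 957 and 1255 TPM in untreated homozygous libraries, and did not pass (-1.18, standard error 0.26, limma adjusted p = 0.0546). Snap25, a membrane fusion protein, had 2048, 1870 and 973 TPM in treated libraries and 1701, 1094 and 2029 TPM in untreated homozygous libraries (-0.17, limma adjusted p = 0.813). Of these 18 genes library 3 was below the untreated range for 13 and above it for 2, where 32.8% of all tested genes were below and 41.4% above. Libraries 1 and 2 were below for 4 of the 18 and above for 7, near the 25.2% below and 48.1% above over all tested genes. Of 10 further dense-core granule genes, 9 were tested and 0 passed, with a median of 0.02. Chga, chromogranin A, stood at -0.82 on the log2 scale (limma adjusted p = 0.168) and the processing enzyme Cpe at 0.08. Among the 9, library 3 was below the untreated range for 7 and above it for 2, and libraries 1 and 2 were below for 1 and above for 7. The shares over all tested genes are those just given. Genes of the axon injury response (9 of 11 tested) had 0 called, with Jun at 0.42 (limma adjusted p = 0.219) and Klf6 at -0.18 (limma adjusted p = 0.623). Their median was 0.42, against 0.20 over all tested genes, with 7 above 0 and 2 below. By limma, 4 of the 9 had an unadjusted p under 0.05, as did at least 4432 of all 17102 tested genes. Library 3 was below the untreated range for 2 and above it for 5, as were libraries 1 and 2.

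Genes with profiles like that of the neurofilament genes were picked for that likeness, so a lower level in treated libraries follows from the choice and is given as a description. Over the 5 samples and 11187 genes with a mean of at least 10 TPM, likeness was measured as the Euclidean distance between centred log2(TPM + 1) profiles and the mean neurofilament profile. The nearest genes outside the 10 were Slc24a2 (distance 0.128), a sodium, calcium and potassium exchanger, Nkrf (0.171), a transcriptional repressor, Gria4 (0.198), an AMPA receptor subunit, Tceal6 (0.235) and Dnm3 (0.280), a dynamin. Slc24a2 had 149, 147 and 127 TPM in treated libraries and 398, 244 and 395 TPM in untreated homozygous libraries. Among the 10 genes, Tubb3 ranked 328, Chgb 436, Stmn2 1263, Uchl1 3431 and Slc17a7 8992 of the 11187.

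The second comparison asked how the untreated homozygous cochlea differed from WT. All 5 genes in that table had a lower mean in homozygous than in WT cochlea. Of the 5, 4 fell (Nefl, Stmn2, Slc17a7 and Chgb) and 0 rose, against 33.5% of all 1348 tested genes called lower and 17.9% called higher. The libraries did not overlap for 4 of the 5 (Nefl, Nefh, Stmn2 and Slc17a7), where 45.6% of all tested genes were lower without overlap and 31.5% were higher without overlap. The median log2 fold change was -0.60 for the 5 genes and -0.36 over all tested genes. The table is a short list of genes whose selection is not given and may have been made on these samples, so being in it and passing the test may not be independent, and adjusted p-values over it may be too small.

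Nefl had 472, 273 and 453 TPM in homozygous libraries, against 701, 550 and 568 TPM in WT libraries, with no overlap. The means were 399 ± 110 TPM in homozygous and 606 ± 82.4 TPM in WT cochlea (SD, n = 3 each), and the log2 fold change of -0.64 (standard error 0.22) passed (limma adjusted p = 0.0477). Nefh had 429, 248 and 417 TPM in homozygous libraries, against 584, 449 and 596 TPM in WT libraries, and did not pass (-0.60, standard error 0.23, limma adjusted p = 0.0524). In both genes homozygous library 2 was far below the other homozygous libraries. Without it the log2 fold changes were -0.38 for Nefl and -0.35 for Nefh (limma adjusted p = 0.0533 and 0.0742). The ratio of Nefh to Nefl was 0.909, 0.910 and 0.921 in homozygous libraries and 0.833, 0.816 and 1.05 in WT libraries.

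Stmn2 had 63.8, 53.6 and 75.5 TPM in homozygous libraries, against 91.1, 88.4 and 84.3 TPM in WT libraries (log2 fold change -0.46, standard error 0.15, limma adjusted p = 0.0424). Slc17a7 had 107, 101 and 131 TPM in homozygous libraries, against 170, 143 and 164 TPM in WT libraries (-0.49, standard error 0.14, limma adjusted p = 0.0360). Neither overlapped between the groups. Chgb had 122, 68.6 and 102 TPM in homozygous libraries, against 166, 118 and 164 TPM in WT libraries, and the highest homozygous library lay above the lowest WT library (-0.63, standard error 0.23, limma adjusted p = 0.0492). Under median-of-ratios scaling the log2 fold changes were -0.49 for Nefl, -0.46 for Nefh, -0.32 for Stmn2, -0.35 for Slc17a7 and -0.49 for Chgb, and 0 of the 5 passed. That scaling also turned the split of all calls, to 465 higher and 216 lower, against 241 higher and 451 lower in TPM as deposited.

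With any 1 library left out, calls were lost in most fits. Nefl and Stmn2 each lost theirs in 5 of 6 fits, Slc17a7 in 4 of 6 and Chgb in 6 of 6, and Nefh gained one in 1 of 6. Without homozygous library 1 and without each of WT libraries 1, 2 and 3 none of the 5 passed, and without homozygous library 2 only Slc17a7 did (log2 fold change -0.42, limma adjusted p = 0.0448). Without homozygous library 3, 4 passed, with log2 fold changes of -0.75 for Nefl, -0.72 for Nefh, -0.58 for Stmn2 and -0.60 for Slc17a7. All 5 genes stayed below 0 in each of these fits.

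**Figure D5:**
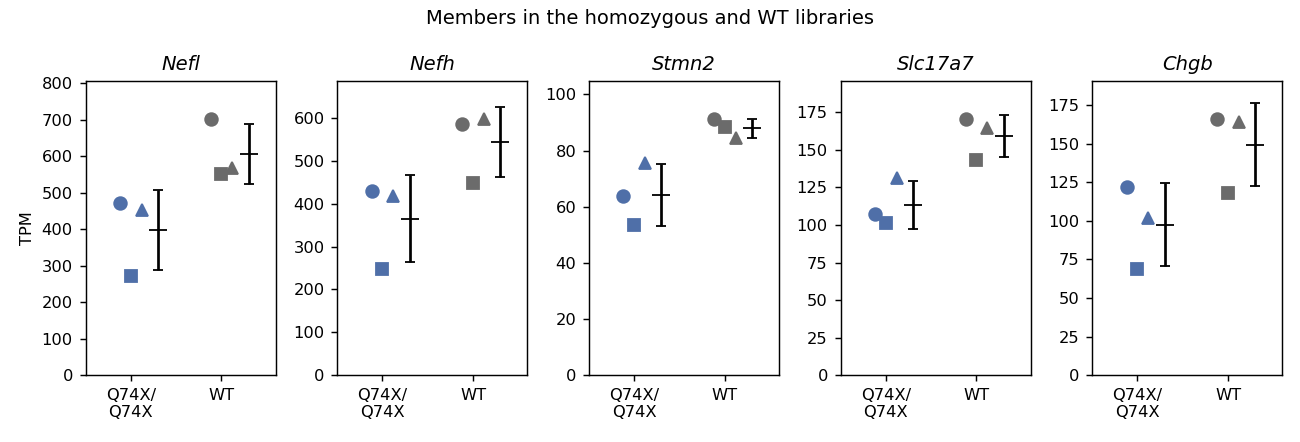
TPM of the 5 genes in homozygous (blue, Q74X/Q74X) and WT (grey) libraries, with circles, squares and triangles for libraries 1, 2 and 3 and bars for the mean ± SD (n = 3 each). Homozygous libraries lie below WT libraries for all 5 genes except that Chgb overlaps, and homozygous library 2 (273 TPM of Nefl) is the lowest of the 6 in each panel.

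Neuronal and glial companions in that table moved in the same comparison. The counts below stand beside 33.5% of all 1348 tested genes called lower and 17.9% called higher, so few calls in a short list say little. Of 5 other axonal cytoskeleton genes in it, 3 fell, among them the tubulin Tubb2a (94.4, 84.3 and 97.9 TPM in homozygous libraries, against 152, 167 and 133 TPM in WT libraries, log2 fold change -0.70, limma adjusted p = 0.0125) and Ina, the neurofilament-related alpha-internexin (84.1, 63.6 and 105 TPM, against 139, 132 and 134 TPM in WT libraries, -0.70, limma adjusted p = 0.0281). Gldn, a Schwann cell ligand that helps form nodes of Ranvier, the vesicle protein Syp and the granule protein Scg5 fell, with log2 fold changes of -0.70, -0.57 and -0.80 (limma adjusted p = 0.0343, 0.0408 and 0.0341). Of the 3 type I neuron markers in the table, Calb1 rose (0.84, limma adjusted p = 0.0368) and 0 fell. Schwann cell markers had 5 of 6 lower, among them the myelin gene Prx (-1.0, limma adjusted p = 0.00847) and Ncmap (-0.90, limma adjusted p = 0.0208), with sums of 4432, 2713 and 5146 TPM in homozygous libraries and 7475, 7747 and 7223 TPM in WT libraries. Markers of other cells moved too. Of the 3 astrocyte markers in the table, all 3 had a log2 fold change above 0 and 1 rose, the glutamate transporter Slc1a2 (106, 135 and 125 TPM in homozygous libraries, against 71.3, 110 and 62.4 TPM in WT libraries, 0.62, limma adjusted p = 0.0466), and the sums were 282, 311 and 303 TPM in homozygous libraries and 198, 272 and 185 TPM in WT libraries. The 1 oligodendrocyte marker there, the myelin claudin Cldn11, did not pass (0.57, limma adjusted p = 0.0583). Of 3 bone markers, Dmp1 and Ibsp fell (-1.31 and -1.59, limma adjusted p = 0.0116 and 0.0261) and Spp1 rose (0.74, limma adjusted p = 0.0418), with sums of 2564, 3809 and 2050 TPM in homozygous libraries and 1930, 1817 and 2100 TPM in WT libraries. Most of each bone sum was Spp1. Pvalb, which these neurons also make, and the cerebellar marker Cbln3 fell (-0.58 and -0.79, limma adjusted p = 0.0496 and 0.0288). Of the 3 cerebellar markers in the table only Cbln3 was below 0, at no more than 3.37 TPM in any library. Zic1 and Fat2 were above 0 and did not pass (1.00 and 0.45, limma adjusted p = 0.052 and 0.119). The 3 summed to 21.6, 25.0 and 16.5 TPM in homozygous libraries and 13.25, 17.1 and 14.2 TPM in WT libraries. The part of these markers in the results for the 5 genes was not tested.

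Profiles most like those of Nefl and Nefh in that table, over 6 samples and 989 genes, belonged to Cend1 (distance 0.198), Vstm2l (0.211), Mllt11 (0.229), Xkr6 (0.257) and the vesicle protein Syp (0.268). Chgb ranked 6, Stmn2 105 and Slc17a7 123 of the 989. Syp had 196, 145 and 218 TPM in homozygous libraries and 308, 245 and 269 TPM in WT libraries.

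Both comparisons use the same 3 homozygous libraries, so they are not independent of each other. Side by side, the log2 fold changes of treated against untreated homozygous and of homozygous against WT were -1.41 and -0.64 for Nefl, -1.39 and -0.60 for Nefh, -0.51 and -0.46 for Stmn2, 0.78 and -0.49 for Slc17a7, and -2.03 and -0.63 for Chgb. The homozygous libraries themselves differed between the tables: the 15 values of the 5 genes were 1.29 to 1.42 times as high in the table with treated libraries. For this reason treated libraries were not set against WT libraries.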

How the data were processed

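The authors deposited 2 tables of TPM, a relative abundance corrected for transcript length. The submitters' processing notes name kallisto 0.51.0, DESeq without a version, and the build GRCm39. Per the labels' protocols, RNA was extracted with TRIzol and libraries were made with a stranded total RNA kit. One table held 1410 symbols for homozygous and WT libraries and summed to 120756 to 137436 TPM. The other held 25579 symbols for treated and untreated homozygous libraries and summed to 995747 to 996703 TPM. The sources used here do not say how the genes of the first were selected. TPM keeps no depth, so depth is unknown. Groups were taken from titles, because the genotype field counts upward from sample to sample.

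TPM of repeated symbols was summed. Genes that reached 1 TPM in at least 3 libraries were tested with limma 3.58.1 in R 4.3.3 on log2(TPM + 1), with a mean-variance trend, two-sided, within each table, with Benjamini-Hochberg adjustment over all tested genes (17102 and 1348) at a threshold of 0.05. Fold changes on this scale understate the change of low genes. Treated libraries 1 and 2 were near identical (SD of their log2 ratio 0.275 at 1 to 5 TPM, 0.656 or more in other pairs of that table) and were averaged into 1 sample. p-values measure the spread between these libraries. The genes and all lists were chosen with earlier results of these data known. Outside the 10 genes, list genes are named for passing the test with the smallest p (up to 2 higher and 2 lower) or, where none passed, for the highest mean, and a few markers that define a cell type or make up most of a sum were named after their values were seen. The results of 2 list genes are not reported here. Alternatives were another pseudocount, no filter, median-of-ratios scaling, no trend, 3 separate treated samples, library 3 alone, a replicate block and leaving out each library. A rescaling without mitochondrially encoded genes was added after seeing the data. The scripts were tested on simulated data.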

Additional observations from a re-analysis of the deposited data

How the results depend on the processing

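Counts of calls depended on the settings more than directions did. In the treated comparison, the 3 lower members became 1 with a pseudocount of 0.1, 0 without a filter on low values, 1 without the mean-variance trend and 0 with treated library 3 alone. The 589 higher and 165 lower genes became 127 and 7 without a filter and 180 and 42 with treated library 3 alone. Without the trend 73 genes were lower. With the treated libraries as 3 samples 2554 genes were higher and 1009 lower. With 1 library left out, higher genes ranged from 62 to 2249, lower genes from 1 to 735, higher members from 0 to 2 and lower members from 0 to 3. Signs turned for Uchl1 under median-of-ratios scaling (-0.16), after rescaling without mitochondrially encoded genes (-0.10) and with library 3 alone (-0.26), for Gap43 with library 3 alone (-0.46), and with 1 library left out for Uchl1 (-0.32 to 0.33), Stmn2 (-0.64 to 0.00724) and Prph (-0.26 to 0.0311). Uchl1 was at -0.17 without treated library 2. In the homozygous comparison, median-of-ratios scaling gave 465 higher and 216 lower genes and 0 members, and no trend gave 1 member. With 1 library left out, higher genes ranged from 26 to 227, lower genes from 77 to 384 and lower members from 0 to 4. The median log2 fold change of all tested genes was 0.20 as deposited and 0.02 after that scaling in the treated comparison, and -0.36 and -0.23 in the homozygous comparison. The causes were not tested.

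Equal replicate numbers did not pair the samples: deviations of same-numbered libraries correlated at 0.0304, -0.146 and -0.117 in the treated comparison and 0.0493, -0.14 and -0.0743 in the homozygous one. With the number as a replicate block (and 3 treated samples), 1127 genes were higher and 358 lower in the treated comparison, with 4 lower members. In the homozygous comparison the block gave 126 higher and 217 lower genes and 4 lower members, with Nefh passing (limma adjusted p = 0.0418) and Stmn2 not (limma adjusted p = 0.0616). Depth is unknown, so no detection limit can be given for Prph and Gap43, and the precision of all values rests on 2 or 3 samples a group.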

Other observations

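Uchl1 was the one gene of the 10 that separated treated libraries 1 and 2. Library 2 had 1.65 times the level of library 1 (343 and 208 TPM). Of 9237 genes at a mean of 20 TPM or more in these 2 libraries, 136 had a larger ratio in either direction. The other members at that level had ratios of library 2 to library 1 between 0.929 and 1.00.

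The homozygous libraries were quantified differently in the 2 tables for these genes. The mean over the 3 libraries was 1.31 to 1.40 times as high in the table with treated libraries for the 5 genes in both. Over 921 genes at 10 TPM or more in both tables, the median ratio was 1.17, and 73.5% of the genes had a ratio below that of the lowest of the 5.

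Homozygous library 2 was low for the axonal genes, while the median gene was not. Its ratio to the mean of homozygous libraries 1 and 3 was 0.581 for Nefl, 0.543 for Nefm, 0.580 for Nefh, 0.605 for Chgb, 0.475 for Uchl1 and 0.843 for Slc17a7. The median over 10593 genes at 10 TPM or more was 1.02, with 0.610 and 1.70 at the 5th and 95th percentiles.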
